A study of Mus musculus with 9 samples.

Results

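Genes that published studies list as markers of ageing in mouse haematopoietic stem cells (HSCs) were followed in low-input RNA sequencing of sorted HSCs. The 10 genes, Clu, Gda, Pde4d, Selp, Aldh1a1, Nupr1, Gpr183, Alcam, Sult1a1 and Ehd3, were taken by symbol from a table of 23317 genes; each matched 1 row and all 10 had enough counts to be tested. The 9 libraries fell into 3 groups of 3: HSCs of old mice treated with ABC294640, HSCs of old mice without the inhibitor, and HSCs of young mice. ABC294640 is described by the submitters as an inhibitor of sphingosine kinase 2, which turns the lipid sphingosine into its signalling form, sphingosine 1-phosphate. All mice were wild type, and the protocols give ages of 20 to 24 months and of 2 to 4 months, assigned here to the old and the young mice by their wording. Each library was made from 1500 cells sorted from bone marrow. The sources used here give no strain, no sort markers and, for the inhibitor, no dose, route or duration. Whether replicate libraries came from separate mice is not labelled, so the p-values reflect only how these samples spread, which may be technical.

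HSCs reside in the bone marrow and give rise to every blood lineage. With age they become more numerous but less able to rebuild blood, and their output shifts from lymphocytes towards myeloid cells and platelets. The genes followed here are among those that several studies of sorted mouse HSCs report at higher levels in old animals, and they do unrelated work: Clu encodes clusterin, a secreted chaperone, Nupr1 a small chromatin-associated protein induced by stress, Gda, Aldh1a1 and Sult1a1 metabolic enzymes, Pde4d and Gpr183 a signalling enzyme and a receptor, Ehd3 an ATPase of endosome traffic, and Selp and Alcam adhesion proteins of the cell surface.

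In old against young HSC, 5 of the 10 genes rose (Clu, Gda, Pde4d, Nupr1 and Sult1a1), 2 fell (Gpr183 and Ehd3) and 3 did not pass the threshold (Aldh1a1, Selp and Alcam). Of all 14227 genes tested, 19.6% rose and 19.8% fell in that comparison. None of the 10 passed between old HSC with and without ABC294640, where 0.766% of all genes rose and 0.429% fell, 1.19% in all. Levels are in CPM, counts set relative to library sizes scaled by the TMM method, errors are SD over 3 libraries, log2 fold changes carry their standard error or 95% confidence interval, and each adjusted p comes from the quasi-likelihood test of edgeR, corrected by Benjamini-Hochberg over all 14227 genes, with a threshold of 0.05.

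Library totals ran from 16663559 to 23254225 counts. All 15 fixed HSC markers were in the table, and 14 reached 1 CPM in every library, the exception being Fgd5. Procr, which marks the most primitive HSCs, averaged 3.19 ± 0.299 CPM in treated old HSC, 2.54 ± 0.350 CPM in old HSC and 3.88 ± 0.203 CPM in young HSC. Transcripts of myeloid progenitors were abundant: the 8 fixed markers, among them Mpo, summed to 45056 to 46141 CPM in treated old libraries, 45682 to 48283 CPM in old libraries and 29991 to 33939 CPM in young ones. Of these progenitor markers, 7 rose and 1 fell in old against young HSC, while 1 HSC marker rose and 8 fell of 15, and the part of this difference in the results below was not tested. In bulk samples fewer cells of a type and less RNA per cell cannot be told apart. Ddx3y and Eif2s3y, genes of the Y chromosome, were also higher in old libraries (38.8 ± 5.08 and 78.0 ± 2.91 CPM) than in young ones (0.935 ± 0.258 and 2.55 ± 0.848 CPM), so an effect of age and one of donor sex cannot be told apart; none of the 10 genes is on a sex chromosome.

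Stretches upstream of the start sites of some genes on both sides of the comparison are shown first. They set the sequence of Gda and Sult1a1, which are among the genes that rose, beside that of the gene that fell most (Gpr183) and of the surface marker Selp, whose level did not pass. They are from RefSeq, build GRCm38.p6, run 5′ to 3′ on the strand of the gene, leave out every annotated exon, and have in capitals the matches to 9 motifs searched on both strands.
Gda, minus strand, chr19:21472673-21472911: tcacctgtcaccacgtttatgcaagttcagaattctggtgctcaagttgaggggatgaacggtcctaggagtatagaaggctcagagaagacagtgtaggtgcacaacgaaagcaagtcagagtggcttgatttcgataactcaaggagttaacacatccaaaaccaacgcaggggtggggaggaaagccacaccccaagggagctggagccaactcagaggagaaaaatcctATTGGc
Sult1a1, minus strand, chr7:126676433-126676668: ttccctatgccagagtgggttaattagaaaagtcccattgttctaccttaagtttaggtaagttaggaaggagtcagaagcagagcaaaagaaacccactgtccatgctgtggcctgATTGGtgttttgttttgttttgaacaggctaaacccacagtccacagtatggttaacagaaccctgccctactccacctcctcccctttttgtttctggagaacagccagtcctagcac
Gpr183, minus strand, chr14:121965196-121965443: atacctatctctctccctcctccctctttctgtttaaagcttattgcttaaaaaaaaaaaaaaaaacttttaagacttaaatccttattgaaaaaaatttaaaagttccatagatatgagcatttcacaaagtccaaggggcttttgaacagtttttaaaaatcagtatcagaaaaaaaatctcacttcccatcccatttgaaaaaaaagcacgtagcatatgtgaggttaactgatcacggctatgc
Selp, plus strand, chr1:164115014-164115263: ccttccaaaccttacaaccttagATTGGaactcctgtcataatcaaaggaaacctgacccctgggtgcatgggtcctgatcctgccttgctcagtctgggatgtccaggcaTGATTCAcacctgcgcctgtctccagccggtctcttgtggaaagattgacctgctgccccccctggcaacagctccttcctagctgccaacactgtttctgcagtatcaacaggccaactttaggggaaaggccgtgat
The motifs were those of AP-1 (written TGANTCA), of the cyclic AMP response element (TGACGTCA), of paired ATF4 and C/EBP (a composite, TGATGNAA), of the GATA family (AGATAA), of the ETS family (CCGGAAGT) and of E-box factors (CACGTG), and the core promoter elements known as the CCAAT box, the GC box (written GGGCGG) and the TATA box (written TATAAA). The capitals in Gda and Sult1a1 are the CCAAT box read on the other strand, which 33.8% of all 32851 windows of 250 bases hold. Selp held that box as well and TGATTCA, a form of the AP-1 motif, found in 6.75% of windows. An AP-1 match was also in a window of Aldh1a1, and the CCAAT box in windows of Aldh1a1 and Alcam. None of the 9 was found in the Gpr183 stretch, which was also the poorest in G and C (32.0% over its window of 250 bases, against a median of 52.4% over all windows). The composite TGATGNAA was in the window of Nupr1 alone among the 9 genes with a window, and in 3.45% of all windows. It lies 110 bases before the start site, within 30 bases at chr7:126625562-126625591 on the minus strand that read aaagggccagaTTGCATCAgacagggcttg, where the capitals mark it. Unlike the stretches above, the Nupr1 window lies within annotated exons, so only these bases are shown. These matches describe letters and say nothing of binding. Clu was not in the promoter table.

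Clu had the largest change of the 10 genes. Clusterin is a secreted glycoprotein that binds misfolded proteins outside the cell, and its gene (ENSMUSG00000022037) spans 65968483 to 65981547 on chromosome 14 of GRCm38. Clu stood at 79.2, 69.1 and 74.7 CPM in the old libraries and at 24.7, 19 and 19.3 CPM in the young ones. The lowest old library was thus above the highest young one by a wide margin. The difference was 3.52-fold (95% interval 3.13 to 3.96; log2 fold change 1.82 ± 0.082, adjusted p = 4.59e-13). In the treated old libraries Clu stood at 71.6, 68.9 and 74.2 CPM, inside the range of the old libraries but for 1 just beneath it, with a log2 fold change to old HSC of -0.05 (95% interval -0.21 to 0.10, adjusted p = 0.922).

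Platelets also carry Clu, so markers of their lineage are given beside it, and their part in the rise of Clu was not tested. Of 7 tested megakaryocyte and platelet markers, 4 fell in old against young HSC and the others did not pass, where 19.8% of all genes fell. The 10 markers in the table summed to 220 to 250 CPM in old libraries and 438 to 482 CPM in young ones. Most of that sum was the platelet chemokine gene Pf4, which averaged 178 ± 13 CPM in old HSC and 375 ± 16.6 CPM in young HSC. No marker of that list was at 0 in all libraries. Apoe, the gene of an apolipoprotein that, like clusterin, is carried on lipoprotein particles, fell: it averaged 228 ± 12.0 CPM in old HSC and 364 ± 32.9 CPM in young HSC (log2 fold change -0.67 ± 0.059, adjusted p = 1.38e-08).

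The stress gene Nupr1 (chromosome 7, 126623249 to 126630861) stood at 28.2, 25.3 and 30.5 CPM in old HSC and at 20.1, 16 and 19 CPM in young HSC. The libraries did not overlap, and the rise was 1.51-fold (log2 fold change 0.60 ± 0.092, adjusted p = 3.33e-05). Treated old libraries, at 26.0, 30.2 and 27.0 CPM, lay within the old range (log2 fold change -0.01, 95% interval -0.20 to 0.18, adjusted p = 0.990). Nupr1 is a known target of ATF4, the transcription factor of the integrated stress response. Of 10 genes on that axis, listed with earlier results of these data known, 5 rose in old against young HSC, where 19.6% of all genes rose. Ddit3, Trib3, Atf5, Sesn2 and Ddit4 did not pass (adjusted p from 0.084 to 0.927). The 5 that rose were Atf4 itself, Asns (asparagine synthetase), Atf3, Cebpb and Chac1. Atf4 averaged 311 ± 7.03 CPM in old HSC and 255 ± 2.52 CPM in young HSC (log2 fold change 0.28 ± 0.041, adjusted p = 1.62e-05), and Asns 107 ± 2.32 CPM and 84.2 ± 2.96 CPM in old and young HSC (0.35 ± 0.049, adjusted p = 9.89e-06). Cebpb, which encodes a C/EBP transcription factor, was the gene of that axis that passed the threshold under the inhibitor: it fell to 49.4 ± 1.51 CPM in treated old HSC, against 74.9 ± 5.07 CPM in old HSC (log2 fold change -0.60, adjusted p = 4.15e-05), with 32.3 ± 2.80 CPM in young HSC.

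**Figure D1:**
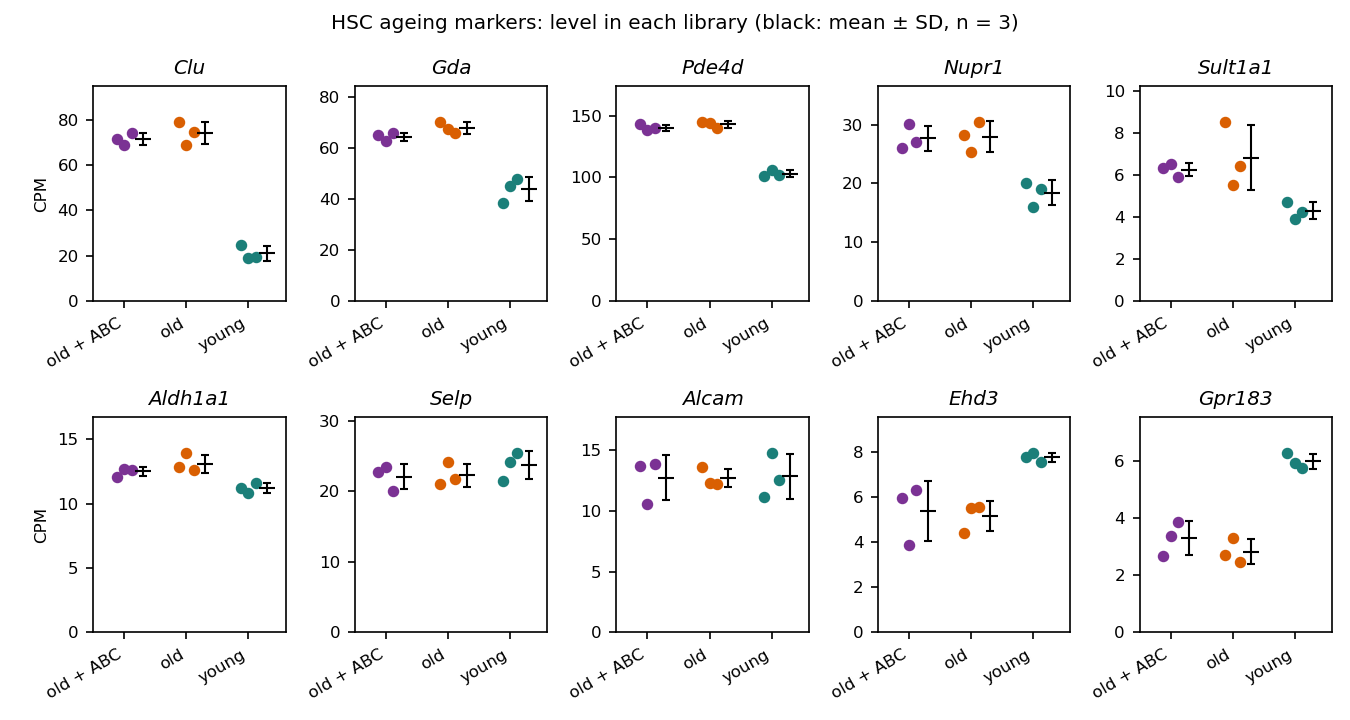
Level of each of the 10 ageing markers in each library, in CPM, with old HSC treated with ABC294640 (old + ABC), old HSC and young HSC from left to right; points are libraries and black marks are mean ± SD (n = 3). For Clu, Gda, Pde4d, Nupr1, Sult1a1 and Aldh1a1 every old library was above every young one, for Ehd3 and Gpr183 every old library was below, and treated and untreated old libraries overlapped for all 10 genes.

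The metabolic enzymes differed among themselves. Gda (chromosome 19, 21391307 to 21473445) encodes guanine deaminase, which converts guanine to xanthine. It stood at 70.2, 67.4 and 65.7 CPM in old HSC and at 38.5, 45.0 and 47.9 CPM in young HSC. The groups were well apart, and the rise was 1.55-fold (log2 fold change 0.63 ± 0.067, adjusted p = 2.45e-07). The treated old libraries had 64.9, 62.7 and 65.7 CPM, at or just below the low end of the old range (log2 fold change -0.07, 95% interval -0.21 to 0.07, adjusted p = 0.849). Of 6 other tested genes of purine salvage and breakdown, 4 rose in old against young HSC and the others did not pass. Ada, adenosine deaminase, averaged 69.3 ± 4.22 CPM in old HSC and 37.6 ± 2.72 CPM in young HSC (log2 fold change 0.88 ± 0.064, adjusted p = 9.71e-10), and Aprt, which salvages adenine, 240 ± 17.3 CPM and 195 ± 14.2 CPM in old and young HSC (adjusted p = 0.000257). The other 2 that rose were Nt5c2 and Ampd2. Those 6 genes were listed with earlier results of these data known, and the background of 19.6% rising applies to them too.

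Sult1a1 (chromosome 7, 126672865 to 126676432), a phenol sulfotransferase, had few counts, from 80 to 145 per library. It stood at 8.52, 5.50 and 6.42 CPM in old HSC and at 4.72, 3.92 and 4.23 CPM in young HSC. Old replicate 1 stood above the other two, and still no old library overlapped a young one. The rise was 1.57-fold with a wide interval (1.25 to 1.98; adjusted p = 0.00270). Treated old HSC had 6.32, 6.52 and 5.90 CPM (log2 fold change to old HSC -0.12, 95% interval -0.44 to 0.21, adjusted p = 0.913). Of its exonic bases 4.05% overlap Sgf29 on the other strand, and 11.4% of its 31-base words recur in other genes, so a small part of its count is uncertain. Of 4 genes listed with it and tested, Sult1d1, Sult2b1, Papss1 and Papss2, 1 fell and the others did not pass, where 19.8% of all genes fell. The gene that fell was Sult1d1, which stood under 1 CPM in all 3 groups. The makers of the sulfate donor, Papss1 and Papss2, averaged 20.3 and 15.1 CPM in old HSC and 19.1 and 17.6 CPM in young HSC, and did not pass (adjusted p = 0.514 and 0.0858).

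Sult1a1 and Nupr1 are neighbours, 42.0 kb apart on the minus strand of chromosome 7, which the choice of the genes did not use. Within 100 kb of the pair 10 other genes were tested, of which Eif3c, Sgf29 and Coro1a, 3 in all, rose in old against young HSC and 7 did not pass. Of all genes tested, 19.6% rose in that comparison. The log2 fold changes of Eif3c, Sgf29 and Coro1a were 0.18, 0.17 and 0.23, below the 0.60 of Nupr1 and the 0.65 of Sult1a1. Aldh1a1 and Gda lie 748 kb apart on chromosome 19.

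Aldh1a1 (chromosome 19, 20492715 to 20643465) encodes a cytosolic aldehyde dehydrogenase that makes retinoic acid from retinaldehyde. It stood at 12.8, 13.9 and 12.6 CPM in old HSC and at 11.2, 10.8 and 11.6 CPM in young HSC. The libraries did not overlap, but the difference was small, 1.17-fold (95% interval 1.03 to 1.34), and just missed the threshold (adjusted p = 0.0548). It passed with RLE size factors (adjusted p = 0.0409), without a filter (0.0463), with values rounded down (0.0498) and without old replicate 3 (0.0486), and adjusted p ranged from 0.0409 to 0.162 over 13 alternatives. Treated old HSC had 12.1, 12.7 and 12.6 CPM (log2 fold change to old HSC -0.07, adjusted p = 0.904). Its near copy Aldh1a7, which holds 5.70% of its 31-base words, averaged 1.17 ± 0.367 CPM in old HSC and 1.96 ± 0.561 CPM in young HSC. Aldh1a3, another maker of retinoic acid, rose: it averaged 38.4 ± 4.05 CPM in old HSC and 28.4 ± 2.04 CPM in young HSC (log2 fold change 0.43 ± 0.089, adjusted p = 0.000645). Of 9 related dehydrogenases tested, 2 rose, Aldh1a3 and Aldh9a1, and 4 fell, Aldh2, Aldh1a2, Aldh1l1 and Aldh1l2. Of 10 tested genes of retinoid metabolism and its receptors, 1 rose, Rdh11, and 9 did not pass. Beside both lists, 19.6% of all genes rose and 19.8% fell.

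Among the signalling genes Pde4d was the most heavily sequenced, with 2162 to 3017 counts per library. Pde4d (chromosome 13, 108449948 to 109953461) encodes a phosphodiesterase that breaks down cyclic AMP. It stood at 145, 144 and 140 CPM in old HSC and at 101, 106 and 102 CPM in young HSC. The spread within each group was small beside the gap between them, and the rise was 1.39-fold (log2 fold change 0.48 ± 0.045, adjusted p = 4.92e-08). Treated old HSC had 143, 138 and 140 CPM, and the interval for their difference from old HSC was the narrowest of the 10 genes (log2 fold change -0.03, 95% interval -0.13 to 0.06, adjusted p = 0.922). Its relative Pde4b rose as well, averaging 207 ± 4.41 CPM in old HSC and 164 ± 5.85 CPM in young HSC (log2 fold change 0.34 ± 0.045, adjusted p = 5.1e-06), whereas Pde4a (20.2 CPM in old and 19.5 CPM in young HSC) and Pde4c (2.12 and 2.61 CPM in old and young HSC) did not pass (adjusted p = 0.695 and 0.302). Of 16 other tested genes of cyclic AMP signalling, 4 rose and 2 fell, beside the 19.6% and 19.8% of all genes. The 4 were the transcription factor gene Atf1, the phosphodiesterase gene Pde8a and the regulatory subunits of protein kinase A Prkar1a and Prkar2b, and the 2 that fell were the phosphodiesterase gene Pde3b and the adenylate cyclase gene Adcy6 (log2 fold changes -0.37 and -0.65, adjusted p = 0.0450 and 0.0297).

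Gpr183 went against its published direction. It encodes a receptor for oxysterols that guides immune cells (chromosome 14, 121952551 to 121965195), and it stood at 2.70, 3.30 and 2.45 CPM in old HSC and at 6.26, 5.93 and 5.75 CPM in young HSC. Every old library was below every young one, and the fall was 2.10-fold (log2 fold change -1.07 ± 0.17, adjusted p = 3.87e-05). The counts behind it were low, 40 to 69 in old and 121 to 151 in young libraries. Treated old HSC had 2.67, 3.38 and 3.85 CPM, overlapping old HSC (log2 fold change 0.22, 95% interval -0.17 to 0.61, adjusted p = 0.828). Monocyte and lymphoid cells also express Gpr183. The 10 fixed monocyte and macrophage markers summed to 2001 to 2156 CPM in old libraries and 2890 to 3127 CPM in young ones, with 1 that rose and 8 that fell and none at 0 in all libraries. B cell markers summed to 194 to 195 CPM in old libraries and 186 to 207 CPM in young ones. T and NK cell markers, nearly all of it Nkg7, summed to 1735 to 1891 CPM and 1332 to 1486 CPM in old and young libraries. Of 6 tested, 1 rose, 1 fell and 4 did not pass (median log2 fold change -0.78), where 19.6% of all genes rose and 19.8% fell. The part of these cells in the fall of Gpr183 was not tested. Of the genes of oxysterol metabolism tested, Hsd3b7 rose (log2 fold change 0.19, adjusted p = 0.0158), Cyp27a1 fell (-0.75, adjusted p = 0.0109) and Cyp7b1 did not pass (-0.16, adjusted p = 0.753). Cyp27a1, an enzyme gene of oxysterol synthesis, had 1.82 ± 0.478 CPM in old HSC and 3.09 ± 0.344 CPM in young HSC.

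Ehd3 fell too. The protein is an ATPase that shapes the tubules by which receptors return from endosomes to the surface (chromosome 17, 73804134 to 73832094). Ehd3 stood at 4.41, 5.50 and 5.57 CPM in old HSC and at 7.79, 7.94 and 7.54 CPM in young HSC. The groups did not overlap, and the fall was 1.5-fold (log2 fold change -0.59 ± 0.15, adjusted p = 0.00527). Treated old libraries were uneven, at 5.97, 3.88 and 6.31 CPM, and did not differ from old HSC beyond that spread (log2 fold change 0.07, 95% interval -0.28 to 0.42, adjusted p = 0.963). Its relatives Ehd1 (8.77 ± 0.672 CPM in old and 7.32 ± 0.921 CPM in young HSC), Ehd2 (0.978 and 1.11 CPM) and Ehd4 (18.5 ± 1.05 and 21 ± 1.55 CPM) did not pass in that comparison (adjusted p = 0.117, 0.679 and 0.0882).

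The adhesion genes Selp and Alcam were level. Selp (chromosome 1, 164115264 to 164150026) encodes P-selectin, which platelets and endothelium carry to bind leukocytes. It stood at 21, 24.1 and 21.7 CPM in old HSC and at 21.5, 24.2 and 25.4 CPM in young HSC. The libraries overlapped, with a log2 fold change of -0.09 (95% interval -0.27 to 0.09, adjusted p = 0.450), and treated old libraries had 22.8, 23.4 and 20.1 CPM (log2 fold change to old HSC -0.01, 95% interval -0.20 to 0.17, adjusted p = 0.987). The interval for old against young HSC ends at a 1.07-fold rise. Up to 9.93% of its exonic bases lie under an antisense transcript, so that its count holds some uncertainty. Of the other selectin genes and those for the P-selectin ligand, 2 fell and 3 did not pass of 5, where 19.8% of all genes fell. Selplg, which encodes the ligand, fell to 140 ± 4.2 CPM in old HSC, against 189 ± 15.0 CPM in young HSC (log2 fold change -0.43 ± 0.053, adjusted p = 1.8e-06), and Fut7, whose fucosyltransferase completes it, to 9.26 ± 0.492 CPM, against 12.3 ± 1.44 CPM.

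Alcam (chromosome 16, 52248996 to 52454074), the activated leukocyte cell adhesion molecule, stood at 13.6, 12.3 and 12.2 CPM in old HSC and at 11.1, 14.7 and 12.5 CPM in young HSC. The young libraries spread on both sides of the old ones, and the log2 fold change was -0.00 (95% interval -0.25 to 0.24, adjusted p = 0.987). Treated old libraries had 13.7, 10.5 and 13.8 CPM (95% interval to old HSC -0.25 to 0.25, adjusted p = 0.999).

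**Figure D2:**
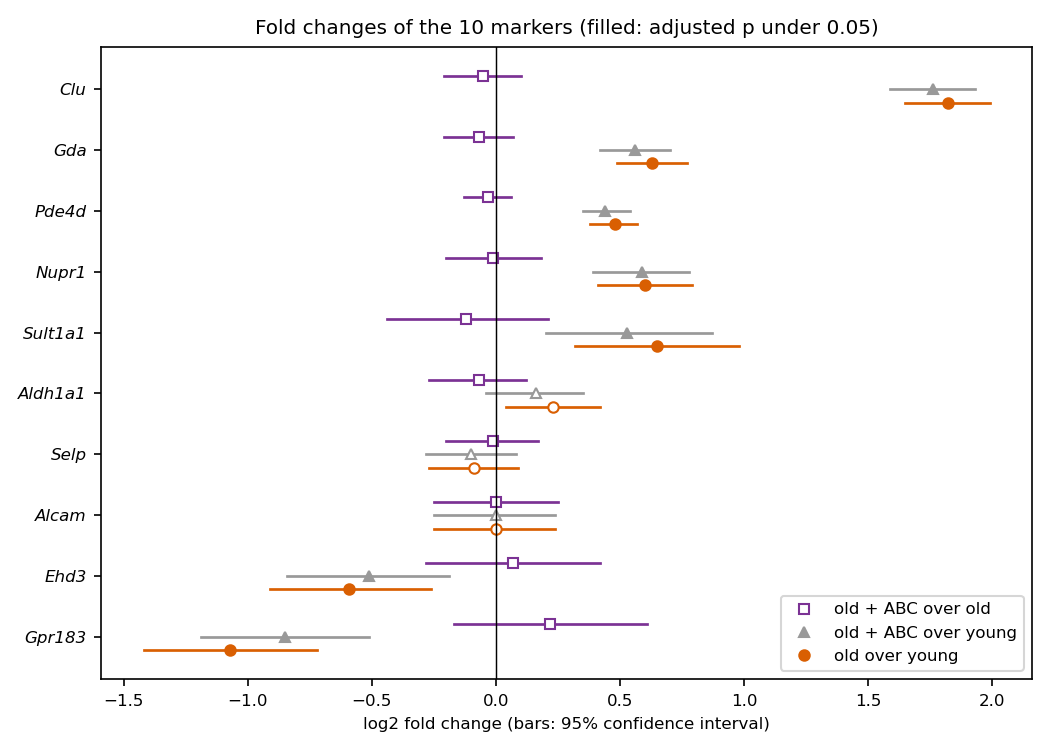
Log2 fold change with its 95% confidence interval for each of the 10 genes in treated old over old HSC, treated old over young HSC and old over young HSC; filled symbols passed an adjusted p of 0.05. The 10 intervals of treated old over old HSC all cross 0, while Clu stands alone at 1.82 in old over young HSC and Gpr183 at -1.07 marks the other end.

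With ABC294640 none of the 10 genes moved past the threshold against untreated old HSC. Adjusted p ran from 0.828 to 0.999 by edgeR, 0 of the 10 had an unadjusted p under 0.05 (8.83% of all genes did), and DESeq2 made 0 calls among the 7 for which it gave an adjusted p, leaving out Gpr183, Sult1a1 and Ehd3. The log2 fold changes lay between -0.12 and 0.22 with a median of -0.02, beside a median of 0.00 over all genes, and the widest intervals reached from -0.44 for Sult1a1 to 0.61 for Gpr183. No gene of the 10 had treated libraries clear of the old ones, which 8.34% of all genes had above and 7.14% below. Sphk2, the gene of the inhibited enzyme, averaged 6.35 ± 0.278 CPM in treated old HSC and 7.74 ± 1.35 CPM in old HSC (adjusted p = 0.621); an inhibitor of an enzyme need not change its transcript.

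Against young HSC, treated old HSC gave the same calls: 5 rose, 2 fell and 3 did not pass, where 19.1% of all genes rose and 18.5% fell. The old and the treated libraries are each set against the same young libraries here, so the 2 comparisons are not independent. Clu was 3.39-fold higher in treated old than in young HSC (log2 fold change 1.76 ± 0.082), Gda 1.47-fold, Pde4d 1.36-fold, Nupr1 1.5-fold and Sult1a1 1.45-fold, with adjusted p from 8.09e-13 to 0.0123. Gpr183 was 1.80-fold lower (log2 fold change -0.85 ± 0.16, adjusted p = 0.000404) and Ehd3 1.43-fold lower (-0.51 ± 0.15, adjusted p = 0.0123). The call for Ehd3 rested on treated replicate 2, the library at 3.88 CPM: without it the log2 fold change was -0.32 and the adjusted p 0.0927. Over the 10 genes the median log2 fold change was 0.30, beside -0.02 over all genes tested.

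In old against young HSC the median over the 10 genes was 0.35, beside -0.03 over all genes. Libraries did not overlap for 6 genes that were higher and 2 that were lower in old HSC, while among all genes 22.8% were higher and 25.6% lower without overlap. The median size of the change, whatever its sign, was 0.59 for the 10 genes and 0.23 for all genes. These counts describe the list and were not tested. Its members were chosen from reports of genes that rise with age, and with earlier results of these data known.

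Levels of different genes can be compared only per length, here in TPM, from counts divided by exonic length and scaled to one total in every library. Exonic length merges the exons of all annotated transcripts of a gene and can exceed that of the transcript in use, so the order depends on it. In old HSC Clu was the most abundant of the 10 (43.6 ± 2.14), followed by Pde4d (24.1 ± 0.864), Nupr1 (22.4 ± 1.60) and Gda (21.9 ± 0.862). Libraries of Pde4d overlapped those of Nupr1, and those of Nupr1 overlapped Gda. Selp (10.2 ± 0.988) and Sult1a1 (9.10 ± 1.94) overlapped, then came Aldh1a1 (5.36), Alcam (3.60), Gpr183 (1.97) and Ehd3 (1.59), of which the last pair overlapped. The order was the same in treated old HSC, with Clu at 40.6 ± 1.66. In young HSC the order differed at both ends: Clu (12.7 ± 1.81) stood behind Pde4d (17.9 ± 0.663), Nupr1 (15.2 ± 1.59) and Gda (14.7 ± 1.71), and overlapped Gda above and Selp (11.2 ± 1.02) below it. Gpr183 (4.32 ± 0.158) stood above Alcam (3.74 ± 0.588), with overlapping libraries.

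**Figure D3:**
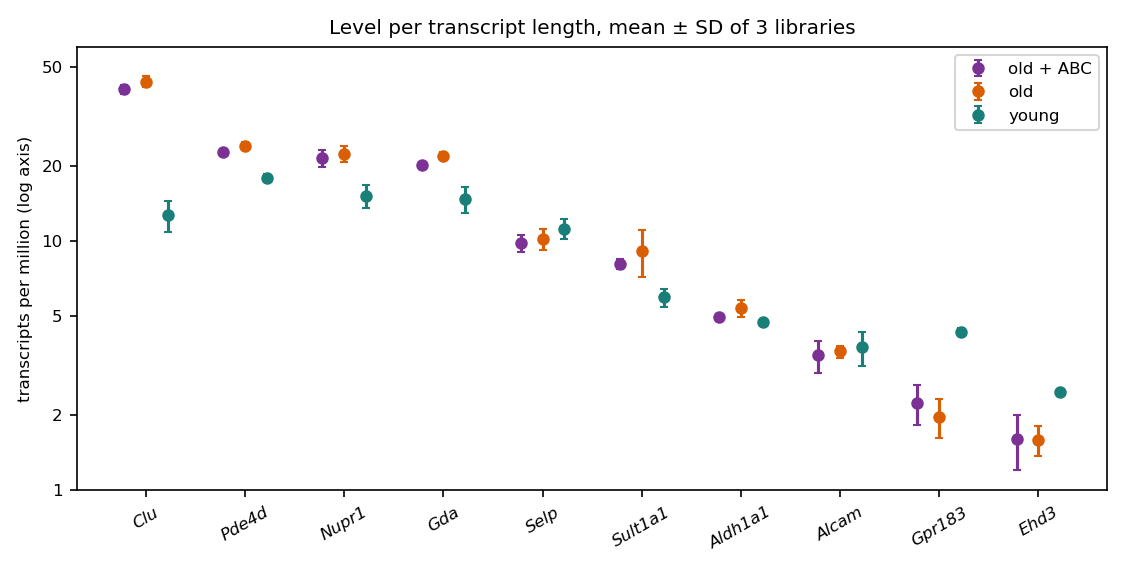
Level of each gene per exonic length (exons of all its annotated transcripts merged), in TPM on a log axis, as mean ± SD of 3 libraries for treated old, old and young HSC. Clu is at the top of the order in old HSC (43.6) and in its middle in young HSC (12.7), and Gpr183 and Ehd3 hold the lowest places in both old groups.

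The genes whose pattern over the 9 libraries was most like that of Clu were sought among 7717 others with a mean of at least 10 CPM, by the root mean square difference of their centred log2 levels. Gpr84, a receptor for medium-chain fatty acids, was nearest (0.08, against a median of 0.82 over all candidates), followed by Gpx3, an extracellular glutathione peroxidase (0.10), and Dgat2, an enzyme of triglyceride synthesis (0.11). Gpx3 averaged 39.2 ± 1.98 CPM in treated old HSC, 39.4 ± 1.09 CPM in old HSC and 10.3 ± 0.962 CPM in young HSC. Being chosen for likeness, these genes carry no test.

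A longer list, drawn up with earlier results of these data known, held 37 other genes reported as higher in old mouse HSC. Of these, 12 rose, 9 fell and 16 did not pass in old against young HSC, where 19.6% of all genes rose and 19.8% fell, with a median log2 fold change of -0.06, beside -0.03 over all genes. Plscr1, a phospholipid scramblase gene induced by interferon, averaged 159 ± 5.72 CPM in old HSC and 103 ± 4.33 CPM in young HSC (log2 fold change 0.62 ± 0.049, adjusted p = 2.43e-09). Zfp36, whose protein destabilises inflammatory messenger RNAs, and Nfkbia, the inhibitor of NF-kB, both had log2 fold changes of 0.50 (adjusted p = 1.17e-08 and 2.1e-08). Vwf, the von Willebrand factor gene of platelet-biased HSCs, fell to 12.5 ± 0.564 CPM in old HSC, against 21.4 ± 1.27 CPM in young HSC (log2 fold change -0.77 ± 0.085, adjusted p = 3.78e-07). Slamf1, the gene of the CD150 antigen, averaged 7.46 ± 0.275 CPM in old HSC and 7.71 ± 1.33 CPM in young HSC (adjusted p = 0.784).

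Of 19 tested genes reported as lower in old HSC, 1 rose and 8 fell, with a median log2 fold change of -0.19. Among all genes 19.6% rose and 19.8% fell, and this list too was drawn up with earlier results of these data known. Cd52 fell to 84.8 ± 1.77 CPM in old HSC, against 144 ± 1.97 CPM in young HSC (adjusted p = 4.04e-11), and Sox4, a transcription factor gene of lymphoid progenitors, to 39.0 ± 2.67 CPM, against 62.3 ± 1.40 CPM (adjusted p = 1.98e-08). The surface genes Cd48 and Cd34 fell by smaller amounts (log2 fold changes -0.33 and -0.32, adjusted p = 4.61e-06 and 1.18e-05). The gene that rose was Flt3, a receptor of multipotent progenitors, at 35.5 ± 2.89 CPM in old HSC and 29.7 ± 1.18 CPM in young HSC (adjusted p = 0.0134). Of the HSC markers, Ly6a, the gene of the Sca-1 antigen, had 49.1 ± 4.26 CPM in old HSC and 86.6 ± 1.53 CPM in young HSC (adjusted p = 1.69e-09).

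**Figure D4:**
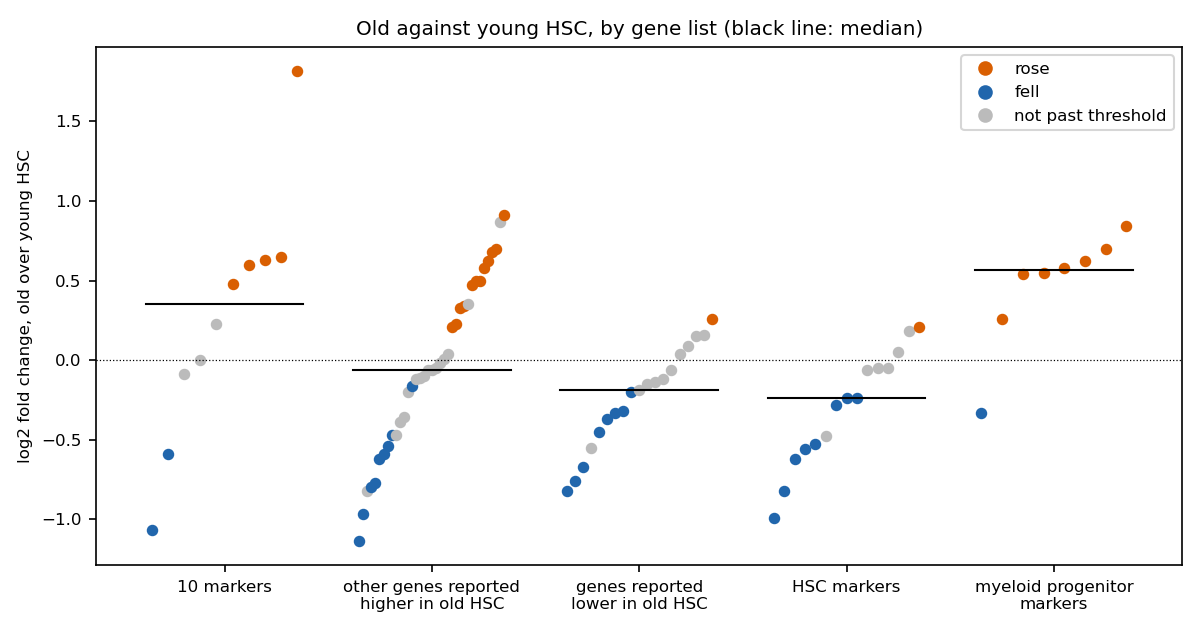
Log2 fold change of old over young HSC for every tested gene of 5 lists; each point is a gene, coloured by whether it rose, fell or did not pass an adjusted p of 0.05, and the black line is the list's median. The 10 markers have a median of 0.35, the 37 other genes reported as higher in old HSC -0.06, the 19 genes reported as lower -0.19, the 15 HSC markers -0.24 and the 8 myeloid progenitor markers 0.56. Procr and Slamf1 are in both the list reported as higher and that of HSC markers. Cd48 and Flt3 are in both the list reported as lower and that of progenitor markers.

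Markers of other cell types were measured beside these results, in old against young HSC, where 19.6% of all genes rose and 19.8% fell. Granulocyte markers summed to 8156 to 9166 CPM in old libraries and 5070 to 5228 CPM in young ones (6 rose and 4 did not pass). Erythroid markers summed to 994 to 998 CPM in old libraries and 1749 to 1790 CPM in young ones (1 rose and 8 fell of 9). Stromal and endothelial markers, whose cells can carry Selp, Clu and Aldh1a1, summed to 40.0 to 45.8 CPM in old libraries and 50.4 to 59.6 CPM in young ones (4 fell and 4 did not pass). B cell markers summed to 194 to 195 CPM in old libraries and 186 to 207 CPM in young ones. T and NK cell markers summed to 1735 to 1891 CPM in old libraries and 1332 to 1486 CPM in young ones, nearly all of it from Nkg7, while Cd3e stood under 0.1 CPM. Of the 6 T and NK cell markers tested, 1 rose, 1 fell and 4 did not pass, with a median log2 fold change of -0.78. With 3 libraries a group the smallest p of an exact two-sided permutation test is 0.1, the value reached between old and young HSC by each of these sums except that of B cells (exact p = 0.8). No marker was at 0 in all 9 libraries, and the part of these cells in the results was not tested.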

How the data were processed

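The deposited table gives, per the labels' titles in its header, an expected count, that is, an estimated count that need not be whole, for each gene and library; 56.0% of its non-zero values are whole (tolerance 1e-06). The submitters' processing notes name the build mm10 and, with no role or order, edgeR 3.24.3, HTSeq 0.10.0, STAR 2.6.1d and Trim Galore 0.6.2; which step gave fractions is not given in the sources. Per the labels' protocols, complementary DNA from polyadenylated RNA was amplified by 12 cycles of PCR, without molecular identifiers being mentioned. Use of strand in counting is not stated.

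Values were rounded and fitted in edgeR 4.0.16 (R 4.3.3) with all 9 libraries, group as the only term, TMM normalization, the default filter and the quasi-likelihood test; the standard error is the fold change over the root of the F statistic. The test was also run on counts simulated from the mean levels and dispersions of these data, with set fold changes put into the old group. The outcome of that run is not reported here. DESeq2 1.42.0 was an alternative. All 23317 gene identifiers matched GENCODE mouse release 21 (GRCm38), which gave coordinates, exonic lengths and shared 31-base words. Tables and plots were made with pandas 2.3.3, scipy 1.17.1, numpy 2.4.6 and matplotlib 3.10.9 in Python 3.11.15.

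Replicates of a group differed by more than sampling noise (chi-square per degree of freedom 2.23 to 8.36). Deviations from the group means of old and young libraries of the same number correlated at 0.18 to 0.36. Those of old and young libraries of different number were lower, at -0.32 to 0.09. An old and a treated library of different number reached 0.29 (old replicate 2 with treated replicate 3), so these values cannot show whether the numbers pair libraries. No label gives a pairing, and the main fit used none. For treated old libraries the correlations with the same number were -0.33 to 0.01.

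The members and the gene lists were chosen with earlier results of these data known. Named are the 10 members, up to 4 genes of smallest p in old against young HSC from each list with some relatives of the members, Sphk2, Ddx3y, Eif2s3y and the 3 genes most like Clu. Other genes named as those behind a small count, and Cyp7b1, Slamf1, Procr, Flt3, Nkg7 and Cd3e, were chosen after their values were seen. One list of genes, for partners of clusterin, is not reported here as a whole.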

Additional observations from a re-analysis of the deposited data

How the results depend on the processing

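The members' calls were recomputed under 13 alternatives per comparison: RLE size factors, DESeq2, no filter, a stricter filter (5 CPM or more in 3 or more libraries), a fit of the compared groups alone, rounding down, the replicate block, and leaving out each of 6 libraries in turn. In old against young HSC 5 or 6 members rose and 2 fell under all 13, the sixth being Aldh1a1, and no member reversed. In treated against untreated old HSC 0 members rose or fell under all 13, with DESeq2 giving no adjusted p for Gpr183, Sult1a1 and Ehd3. In treated old against young HSC 5 rose under all 13 and 2 fell, except without treated replicate 2, where 1 fell (range over left-out libraries 1 to 2). With the replicate block 5582 genes were called in old against young HSC, against 5605 without it, and it changed no call of a member. In treated against untreated old HSC the block gave 195 genes. The number of genes called in that last comparison, 170 of 14227, was 333 without a filter, 260 in a fit of the 2 groups alone, and 48 to 176 with 1 library left out; it was 91 and 77 without old replicates 1 and 2 and 66 and 48 without treated replicates 1 and 2. The cause was not tested, and fewer samples were fitted where a library was left out. Low counts limit Gpr183, Ehd3 and Sult1a1, whose intervals in treated against untreated old HSC are the widest of the 10.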
